A study of Mus musculus with 3 samples.

Results

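The macrophages of the neonatal mouse testis were taken from a single-cell RNA-seq series as the cells with at least 10 UMIs summed over C1qa, C1qb, C1qc, Tyrobp, Fcer1g and Csf1r, and with at least 3 of these 6 genes detected. A UMI is a molecular tag that counts 1 captured mRNA once. The rule selected 55 of 14422 cells, or 0.381% (95% exact Clopper-Pearson interval 0.287 to 0.496, covering counting error only). The values that chose the cells are these 6 genes' UMIs, so every level in the selected cells against the other cells is given as a description, with no test.

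The series compared testes of male mice at postnatal day 3 that were wild type for Cdk2 (library Cdk2-WT, Cdk2+/+), heterozygous (Cdk2-HET, Cdk2+/YS) or homozygous (Cdk2-Y15S, Cdk2 YS/YS) for an allele of the cell-cycle kinase CDK2 labelled Y15S. All mice came from heterozygous parents on a background mixed from the strains B6(Cg)-Tyrc-2J/J and FVB/NJ, none was treated, and the allele was present in the whole animal. The tunica was removed, the testes were digested with trypsin and DNase, and each genotype gave 1 droplet library (10x 3′ v2). Both postnatal day 3 and dissection at 3.5 days post partum are given for the mice of every library. How many animals each library held is not given in the labels. With 1 library per genotype no test of genotype was possible, so differences between libraries carry intervals for counting error only, no p-value is printed, and genotype cannot be told apart from the animal, the litter or the library. Where 3 values follow each other they stand for the wild-type, the heterozygous and the homozygous library, in that order.

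Tissue macrophages are resident phagocytes that take up dying cells and debris, sense damage through Fc, complement and Toll-like receptors, recycle the iron and lipid of what they digest, and secrete chemokines and growth factors. Their survival depends on the receptor CSF1R and their identity on transcription factors such as PU.1 (Spi1). In the testis they lie in the interstitium beside the Leydig cells and around the tubules, and the first of them are seeded before birth.

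The 6 genes of the rule encode the chains of the complement starter C1q (C1qa, C1qb and C1qc, side by side on chromosome 4 at 136895917-136898803, 136880129-136886187 and 136889804-136893065, minus strand, GRCm38, GENCODE M21), the ITAM adaptor DAP12 (Tyrobp, chromosome 7), the Fc receptor gamma chain (Fcer1g, chromosome 1) and CSF1R. Among these and the 25 genes highest over other cells, 18 of 26 had an entry in the RefSeq promoter table (GRCm38.p6), read here over the 250 bases before the start. Stretches of 150 bases are shown for the 5 of these genes whose only match to GAGGAAG, the core letters bound by PU.1, lies in that stretch with no annotated exon in the window. C1qb stands beside them. Among the rule genes with an entry (Fcer1g, C1qb and C1qc) it is the only one whose window holds no exon. Capitals mark the match on either strand, and each run is written 5′ to 3′ on the gene's own strand and ends at the base before the start.
Trem2 (chr17:48346251-48346400, plus strand): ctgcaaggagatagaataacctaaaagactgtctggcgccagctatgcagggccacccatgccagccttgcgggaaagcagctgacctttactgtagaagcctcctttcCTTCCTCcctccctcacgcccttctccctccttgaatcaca
Pf4 (chr5:90772285-90772434, plus strand): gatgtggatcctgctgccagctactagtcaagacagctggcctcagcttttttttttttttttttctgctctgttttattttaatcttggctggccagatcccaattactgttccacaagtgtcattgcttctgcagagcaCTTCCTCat
P2ry13 (chr3:59210883-59211032, minus strand): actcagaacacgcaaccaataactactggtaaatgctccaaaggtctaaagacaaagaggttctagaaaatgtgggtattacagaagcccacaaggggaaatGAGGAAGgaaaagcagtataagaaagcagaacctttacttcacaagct
Fcgr1 (chr3:96293970-96294119, minus strand): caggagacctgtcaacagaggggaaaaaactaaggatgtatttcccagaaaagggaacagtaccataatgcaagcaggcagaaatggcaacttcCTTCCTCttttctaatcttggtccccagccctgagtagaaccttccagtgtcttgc
Marco (chr1:120505025-120505174, minus strand): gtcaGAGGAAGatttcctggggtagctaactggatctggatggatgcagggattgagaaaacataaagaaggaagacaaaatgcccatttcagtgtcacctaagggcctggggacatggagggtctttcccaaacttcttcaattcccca
C1qb (chr4:136886201-136886350, minus strand): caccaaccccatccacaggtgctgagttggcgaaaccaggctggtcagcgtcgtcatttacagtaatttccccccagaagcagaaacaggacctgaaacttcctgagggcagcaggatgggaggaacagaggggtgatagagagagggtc
GAGGAAG stood in 7 of the 19 windows of these genes and in 10.7% of all 32536 windows. TGANTCA (AP-1) stood in 4 of 19 windows against 6.73% of all, TTGCNNAA (C/EBP) in 2 against 9.57%, TGCTGA (a MAF half-site) in 5 against 16.1%, and GAAANNGAA (IRF) in 6 against 7.15%, on either strand. PU.1 and IRF letters can overlap at composite sites. A match describes the letters only.

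**Figure D1:**
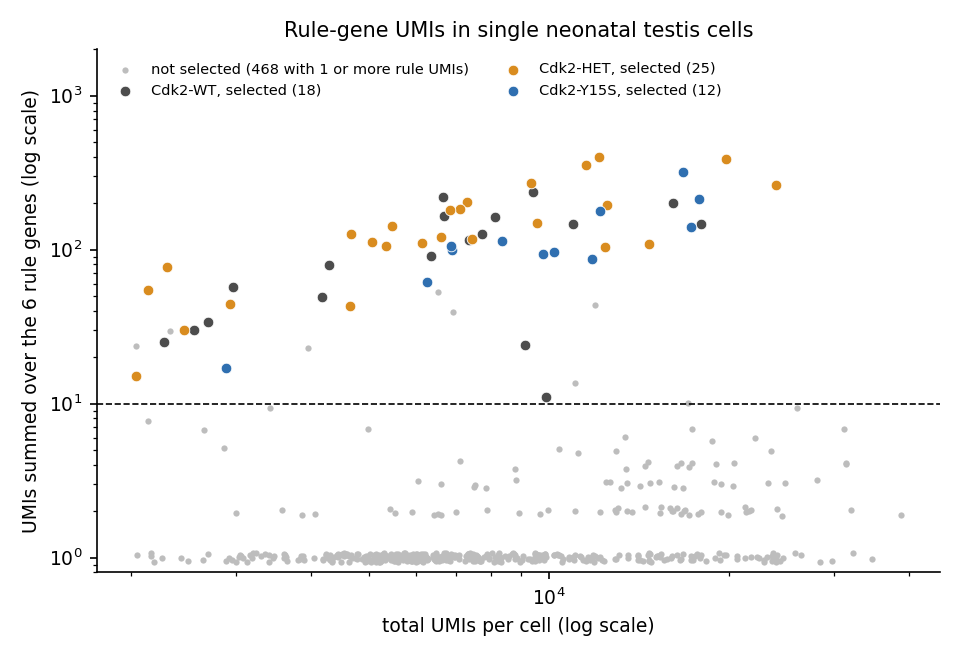
UMIs summed over the 6 rule genes against total UMIs per cell, both on log scales; grey points are cells with at least 1 rule UMI that were not selected (spread slightly for sight), coloured points the 55 selected cells by library, and the dashed line marks 10 UMIs. Most selected cells lie well above the line, with a median of 113 rule UMIs.

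The selected cells carried 466983 UMIs in all and a median of 7309 UMIs per cell (2036 to 24028), against a median of 5747 in the other 14367 cells, which held 90834258. Their rule-gene UMIs ran from 11 to 397, and 46 of 55 cells had all 6 genes. Just inside the rule stood cells with 11, 15, 17 and 24 rule UMIs. Just outside stood 9 cells with 10 to 55 rule UMIs in fewer than 3 genes and 14 cells with 5 to 9, while 13899 cells had none. In the plot of rule UMIs against depth, these 9 cells are the only ones that reach the line without being selected. Scrublet called none of the 55 a doublet (248 cells in all), 1 exceeded 10% mitochondrial UMIs, and no barcode of a selected cell recurred in another library, although 87 barcodes did among all cells.

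When all cells were clustered without the 6 rule genes, 53 of the 55 fell into 1 cluster of 74 cells. Its leading genes were P2ry13, Cx3cr1, Cd84, Ccl3, Ms4a7, Trem2 and Ccr2 together with C1qa, C1qc and C1qb. Of the 21 other cells in that cluster, 12 had no rule UMI, 5 met the marker rule for T, NK and innate lymphoid cells (10 UMIs and 3 genes of that type's markers), 2 that for B cells and 2 that for neutrophils. Both selected cells outside the cluster came from Cdk2-WT, with 24 and 11 rule UMIs beside 11 and 29 UMIs of interstitial stromal markers. No selected cell met the rule for mast cells and basophils, which also express Fcer1g, and 7 of the 8 markers of that rule were at 0 UMIs in them, Cpa3, Ms4a2 and Mcpt8 included.

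RNA of other cell types was low in most selected cells. None met the Sertoli rule, which 46.0% of all cells met, and Wt1 and Dhh were at 0 UMIs while Amh had 2. The 8 Sertoli markers summed to 218 CPM against 3840 CPM in other cells. Sertoli marker UMIs per selected cell had a median of 1, with 0 in 19 cells and 22 at most. In all, 12 of the 55 met the rule of another type (4, 5 and 3 by library). Fetal Leydig markers stood apart: 5 of 55 cells met that rule (9.09%, 3.02 to 19.95), against 1.75% of all cells, and the 6 markers summed to 1533 CPM (UMIs of a gene per 1000000 UMIs of the summed cells) in the selected cells and 330 CPM in the others. Summed over each library they were at 1618, 1502 and 1494 CPM. Their UMIs per selected cell ranged from 0 in 39 cells to 216 in 1 Cdk2-WT cell. The part of these markers in other results was not tested. Of the 12 cells, 5 met the stromal rule, 2 the peritubular myoid rule, 1 the neutrophil rule and 1 the erythroid rule. These overlap, as 1 Cdk2-WT cell with 24 rule UMIs met the stromal, myoid and neutrophil rules at once.

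Genes of macrophage identity were compared first. A gene was compared where at least 30 UMIs were counted in the selected cells or would be there at the other cells' level, which left 3067 genes. Of these, 344 (11.2%) were at least 4-fold higher in the selected cells and 275 (8.97%) at least 4-fold lower, and the median log2 ratio was -0.36. Without the Cdk2-HET cells 212 genes were higher and 137 lower. Of the 344 higher genes, 313 reached the minimum only through the selected cells, where they are high, so the minimum itself fixed their direction, and counts of compared genes at 4-fold higher describe the filter as much as the cells. That holds for all 17 compared genes of the identity list, and the rule used the same contrast, so nothing is read from them. Lyz2, the lysozyme of myeloid cells, had 6572 CPM (95% exact Poisson interval 6342 to 6809) against 7.78 CPM in other cells. Cx3cr1, the fractalkine receptor, had 696 CPM (622 to 776) against 0.121 CPM, and Adgre1, which encodes the F4/80 antigen, 212 CPM (172 to 258) against 0.0771 CPM. P2ry13, a nucleotide receptor, had 36 UMIs in 25 cells and none in all other cells, which makes it at least 2334-fold higher against a floor of 3 counts. CPM of 3′ tags are not divided by transcript length, so levels are compared between cells and not between genes.

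The 25 genes highest over other cells were, besides 5 rule genes, Cx3cr1, Adgre1 and P2ry13, Ms4a7, Ms4a6c and Ms4a6d (membrane-spanning proteins of myeloid cells), Trem2 (a lipid-sensing receptor that signals through DAP12), Pf4 and Ccl3 (chemokines), Ccl24 (an eosinophil chemokine), C3ar1 (the receptor for C3a), Fcgr1 (the high-affinity IgG receptor), Fcrls, AF251705, Cd84, Lilrb4a, Ctss (cathepsin S), Gpnmb, Marco (a scavenger receptor) and P2ry12. Trem2 reached 1525 CPM (1415 to 1641) in 52 of 55 cells against 0.363 CPM elsewhere. Pf4 reached 2837 CPM (2687 to 2994) in 48 cells. Free RNA can give UMIs in cells that do not express a gene: Sertoli-marker cells, which met only the Sertoli rule, held a UMI of Trem2 in 0.110%, of Pf4 in 0.409%, of Cx3cr1 in 0.0472% and of Mrc1 in 1.51% of cells, at a median of 6201 UMIs. The rule genes Tyrobp and Fcer1g were detected in 55 and 54 cells, at 3366 and 3058 CPM. Csf1r was detected in 50 cells at 475 CPM.

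**Figure D2:**
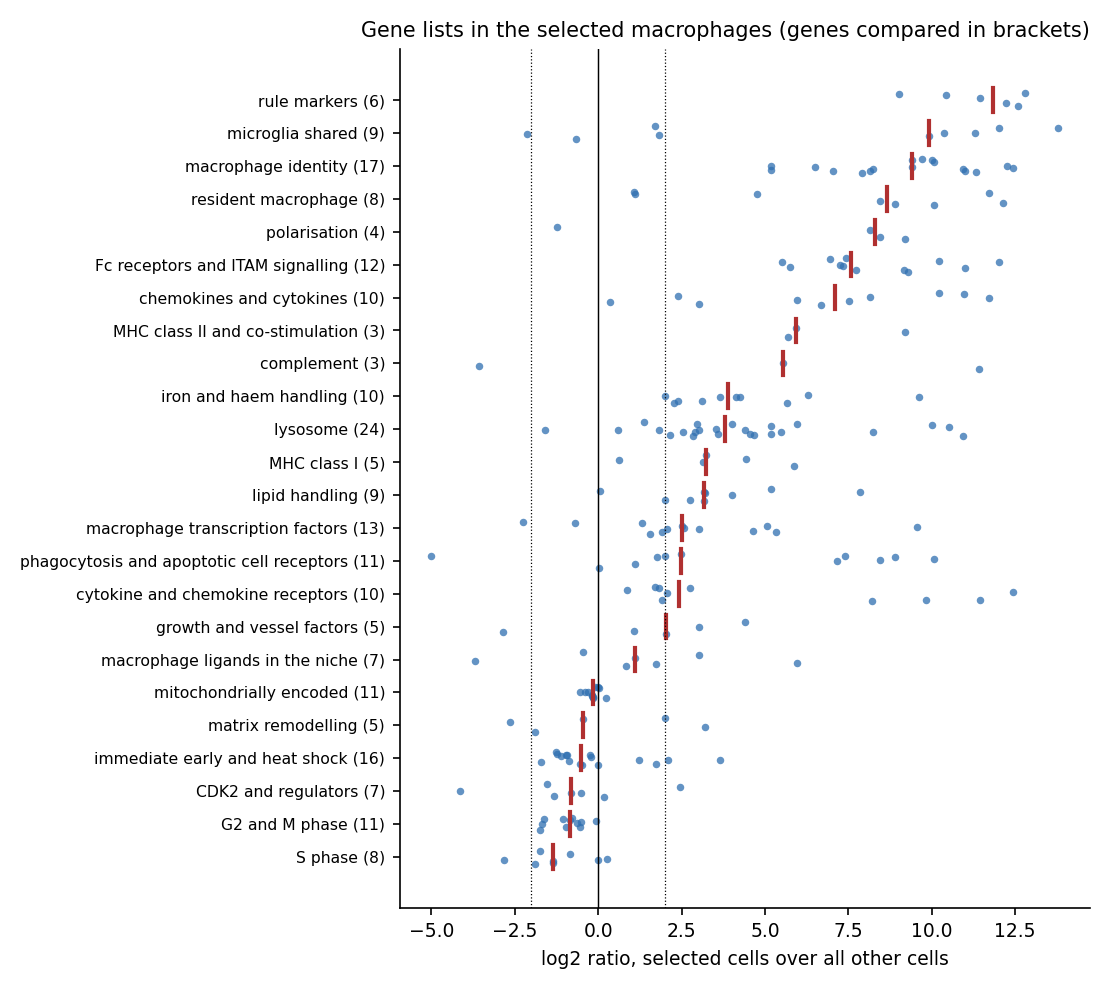
Log2 ratio of each compared gene (points) in the selected cells over all other cells, by gene list, for lists with at least 3 compared genes; red bars are list medians and dotted lines mark 4-fold. Lists of receptors, lysosomal, iron and lipid genes lie to the right of 0, while cell-cycle lists lie to its left. Genes that reached the minimum only through the selected cells could lie only to the right. These were 12 of 12 Fc receptor and ITAM genes, 9 of 10 cytokine and chemokine receptors and 14 of 24 lysosomal genes. They were also 6 of 10 iron, 6 of 9 lipid and 0 of 11 G2 and M genes, so the lists' sides are not compared.

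Among transcription factors, 8 of 13 compared genes were at least 4-fold higher and 1 lower, beside 11.2% and 8.97% over all compared genes. All 8 reached the minimum only through the selected cells, so their direction was fixed. Spi1, which encodes PU.1, had 336 CPM (286 to 393) against 0.440 CPM, and was detected in 50 of 55 cells. Maf had 319 CPM against 39.6, Id2 493 CPM against 130, and Klf6 465 CPM against 186. Irf5 and Irf8, interferon regulatory factors of the myeloid lineage, had 101 and 148 CPM against 2.54 and 4.48. Klf4 was lower, with 98.5 CPM against 477 CPM in other cells, where cells with interstitial stromal markers carried 1142 CPM. Sall1, a factor that marks microglia, was at 0 UMIs.

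Markers of resident macrophages were present in part. Mrc1, the mannose receptor CD206, had 473 CPM (413 to 540) in 44 of 55 cells, Stab1, a scavenger receptor, 383 CPM, F13a1, a coagulation factor made by resident macrophages, 193 CPM, and Sepp1, the selenium carrier selenoprotein P, 4032 CPM against 148 CPM. In contrast Cd163, Lyve1, Vsig4, Cd209f and Cd209g were at 0 UMIs, and the limit that a count of 0 allows is 6.42 CPM. Timd4 had 3 UMIs in 2 cells. Folr2, the folate receptor beta, had 21 UMIs in 13 cells. In all, 6 of 8 compared genes of the resident list were at least 4-fold higher, beside 11.2% over all compared genes. Of the list's 18 genes, 5 had no UMI. Of the 6 higher genes, 5 reached the minimum only through the selected cells, so their direction was fixed.

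Several genes known from microglia were high as well. Of 9 compared genes, 5 were at least 4-fold higher, beside 11.2% over all compared genes: P2ry12, P2ry13, Gpr34, Fcrls and Trem2. All 5 reached the minimum only through the selected cells, so their direction was fixed. Fcrls had 484 CPM (423 to 551) in 36 cells, and P2ry12 had 64.2 CPM in 17 cells. Siglech was at 0 UMIs and Tmem119 was at 98.5 CPM against 28.1 CPM in other cells. Sparc, a matrix protein of microglia that stroma also makes, was lower, at 448 CPM against 1981 CPM.

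Ccr2, Plac8 and Chil3 of the monocyte list were detected in few of the selected cells. Of the 15 genes of that list 12 had a UMI, and together they summed to 563 CPM against 150 CPM in other cells. By library, 4, 7 and 1 cells held no UMI of the list. Ccr2, the receptor that brings monocytes into tissue, was detected in 6 of 55 cells, 2 in each library. Plac8 was detected in 4 cells and Chil3 in 2 Cdk2-WT cells, which held 7 and 6 Chil3 UMIs beside 12 and 19 Plac8 UMIs. These 2 cells had no C1q UMI, as did 1 Cdk2-HET and 1 Cdk2-Y15S cell, both with Ccr2 UMIs. A further 3 cells had 1 to 9 C1q UMIs and 48 had 10 or more.

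The class II genes H2-Aa, H2-Ab1 and H2-Eb1 were at or near 0, and the compared class I genes were not. H2-Aa had 2 UMIs and H2-Ab1 4, each in 1 cell, and H2-Eb1 and Ciita, the class II activator, were at 0. Cd74, the invariant chain, had 35 UMIs, 28 of them in 1 Cdk2-HET cell. The whole list of class II and co-stimulation genes summed to 321 CPM against 15.7 CPM in other cells. Of its 13 genes, 9 had a UMI. All 3 compared genes of that list were at least 4-fold higher, beside 11.2% over all compared genes. These 3 reached the minimum only through the selected cells, so their direction was fixed. The dendritic cell genes Flt3, Xcr1, Clec9a, Itgax and Ccr7 were at 0 UMIs. Of 5 compared class I genes, 4 were at least 4-fold higher, beside 11.2% over all compared genes. Of the 4, 3 reached the minimum only through the selected cells, so their direction was fixed. B2m had 2184 CPM (2052 to 2322) against 234, H2-D1 1182 CPM against 54.9 and H2-K1 415 CPM against 47.1.

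Receptors for uptake and for immune complexes did not share 1 level. All 12 compared Fc receptor and ITAM genes passed the minimum only through the selected cells, so their direction was fixed, among them Fcgr3, a low-affinity IgG receptor, at 597 CPM and Sirpa, the CD47 receptor, at 471 CPM. Of 11 compared phagocytosis genes, 7 were at least 4-fold higher and 1 lower, beside 11.2% and 8.97% over all compared genes. Of the 7, 6 reached the minimum only through the selected cells, so their direction was fixed. Rac2 had 439 CPM, Stab1 383 CPM, Cd36 381 CPM and Msr1 146 CPM (113 to 185) against 0.132 CPM. The 3 receptors of the TAM family, which recognise apoptotic cells through GAS6 and protein S, did not share 1 pattern. Mertk had 45.0 CPM (27.8 to 68.7) against 5.70 CPM, Axl had 165 CPM (130 to 206) against 162 CPM, and Tyro3 had 1 UMI, or 2.14 CPM, against 103 CPM in other cells and 197 CPM in Sertoli-marker cells. Gas6, their ligand, had 482 CPM in the selected cells, 326 CPM in Sertoli-marker cells and 111 CPM in stromal-marker cells.

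Lysosomal genes could all be compared. Of the 24, 20 were at least 4-fold higher and none was 4-fold lower, beside 11.2% and 8.97% over all compared genes. Of the 20, 13 reached the minimum only through the selected cells, so their direction was fixed. Of the 10 lysosomal genes that reached the minimum at the other cells' level too, 7 were higher. Over all genes that did so and had a UMI in the selected cells, 31 of 2490 were. The list median of 3.80 on the log2 scale includes genes of fixed direction and is not read. Ctsd (cathepsin D) had 5047 CPM (4846 to 5255) against 112 CPM, Ctsb (cathepsin B) 3737 CPM against 147 CPM, Lgmn (legumain) 1917 CPM against 52.6 CPM and Psap (prosaposin) 1872 CPM against 239 CPM. Ctsl (cathepsin L) went the other way, at 345 CPM (294 to 402) against 1033 CPM in other cells and 1877 CPM in Sertoli-marker cells.

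Iron and haem genes made up a large share of the RNA. All 10 compared genes were at least 4-fold higher, beside 11.2% over all compared genes. Of the 10, 6 reached the minimum only through the selected cells, so their direction was fixed. The other 4 reached it at the other cells' level too. Over all genes that did so and had a UMI in the selected cells, 31 of 2490 were higher. The list summed to 70521 CPM against 5376 CPM. The ferritin chains Ftl1 and Fth1 had 40804 CPM (40227 to 41388) and 23324 CPM (22888 to 23766), against 2342 and 2685 CPM. Hmox1, the enzyme that opens the haem ring, had 3735 CPM (3561 to 3914) against 47.8 CPM. Slc48a1, which moves haem out of the phagolysosome, had 645 CPM, and Slc40a1, the iron exporter ferroportin, 578 CPM against 11.4 CPM. Slc11a1 (NRAMP1) had 263 CPM against 0.330 CPM.

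Of 9 compared lipid genes, 8 were at least 4-fold higher, beside 11.2% over all compared genes. Of the 8, 6 reached the minimum only through the selected cells, so their direction was fixed. Of the 3 lipid genes that reached it at the other cells' level too, 2 were higher. Over all such genes with a UMI in the selected cells, 31 of 2490 were. Apoe, which carries cholesterol out of the cell, had 22778 CPM (22347 to 23215) against 99.6 CPM, and 615 CPM in fetal Leydig-marker cells. Fabp5 had 1403 CPM against 208 CPM, Lpl (lipoprotein lipase) 411 CPM against 11.3 CPM and Abca1 317 CPM against 34.7 CPM.

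Chemokine genes were high in part of the cells. Of 10 compared genes of the list, 9 were at least 4-fold higher, beside 11.2% over all compared genes. All 9 reached the minimum only through the selected cells, so their direction was fixed. Cxcl2, which draws neutrophils, had 743 CPM (667 to 826) in 28 of 55 cells, Ccl2 454 CPM in 31 cells, Ccl3 385 CPM in 34 cells and Ccl12 55.7 CPM in 16 cells against 0.0220 CPM. Tnf had 45 UMIs in 18 cells. Il6 and Ccl8 were at 0 UMIs, as were Arg1, Retnla and Nos2, which are among the genes used to score macrophage polarisation. Of the 12 genes of the polarisation list, 9 had a UMI, and the list summed to 797 CPM against 197 CPM in other cells. Il1b had 7 UMIs in 2 cells.

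The ligands of CSF1R were not detected in the selected cells. Csf1 and Il34 were at 0 UMIs in them, which allows up to 6.42 CPM, while Csf1 had 8.80 CPM in stromal-marker, 8.57 CPM in myoid-marker and 8.62 CPM in endothelial-marker cells. Cx3cl1, the ligand of CX3CR1, had 28.6 CPM in Sertoli-marker and 32.7 CPM in myoid-marker cells and 4.28 CPM in the selected cells. Igf1 had 567 CPM in the selected cells and 730.5 CPM in stromal-marker cells. Vegfa was at 0 UMIs.

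Few cell-cycle genes passed 4-fold in either direction. None of the 11 compared G2 and M phase genes was at least 4-fold higher or lower, with a list median of -0.83 on the log2 scale against -0.36 over all compared genes, and for S phase 1 of 8 was lower with a median of -1.35. In 10 of the 55 cells at least 5 of the G2 and M genes were detected (18.2%, 9.08 to 30.9), 3, 5 and 2 by library, at a median of 10434 UMIs per cell. The same cut was passed by 28.0% of all other cells and by 37.6% of Sertoli-marker cells. The median depth was 7309 UMIs over the 55 cells, 5747 over all other cells and 6201 over Sertoli-marker cells. Of these 10 cells, 2 Cdk2-WT cells are the ones outside the macrophage cluster, and 3 met another type's rule, which leaves 1, 4 and 2 by library. Cdk2 itself, the mutated gene, had 1, 1 and 0 UMIs in the selected cells of the 3 libraries. In other cells it had 48.2, 49.8 and 48.9 CPM, so its level did not check the labels. Cdkn1a, which encodes the CDK inhibitor p21, had 77.1 CPM (54.0 to 107) against 14.2 CPM, and Ccnd2 32.1 CPM against 588 CPM.

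Selected cells made up 18 of 5061 cells in Cdk2-WT (0.356%, 0.211 to 0.562), 25 of 4958 in Cdk2-HET (0.504%, 0.327 to 0.743) and 12 of 4403 in Cdk2-Y15S (0.273%, 0.141 to 0.476). The intervals, which cover counting error only, overlapped, and with 1 library per genotype no difference in share was tested. Between libraries, genes with at least 20 UMIs over both libraries were compared. In Cdk2-HET, 130 of 2401 genes (5.41%) were at least 2-fold higher than in Cdk2-WT and 97 (4.04%) lower. In Cdk2-Y15S, 151 of 1858 (8.13%) were higher and 119 (6.4%) lower. Both comparisons share the Cdk2-WT cells. Without the 12 cells that met another type's rule, 60 genes were lower in Cdk2-HET and 65 in Cdk2-Y15S, and with every cell weighted equally 209 were higher in Cdk2-HET. Of the same genes in the other, far more numerous cells, 31 and 11 passed 2-fold for Cdk2-HET and 47 and 12 for Cdk2-Y15S. The difference between libraries was carried by few cells for some genes: 1 cell held 50% or more of the higher library's UMIs for 9 of the 130, 10 of the 97, 9 of the 151 and 12 of the 119 genes.

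**Figure D3:**
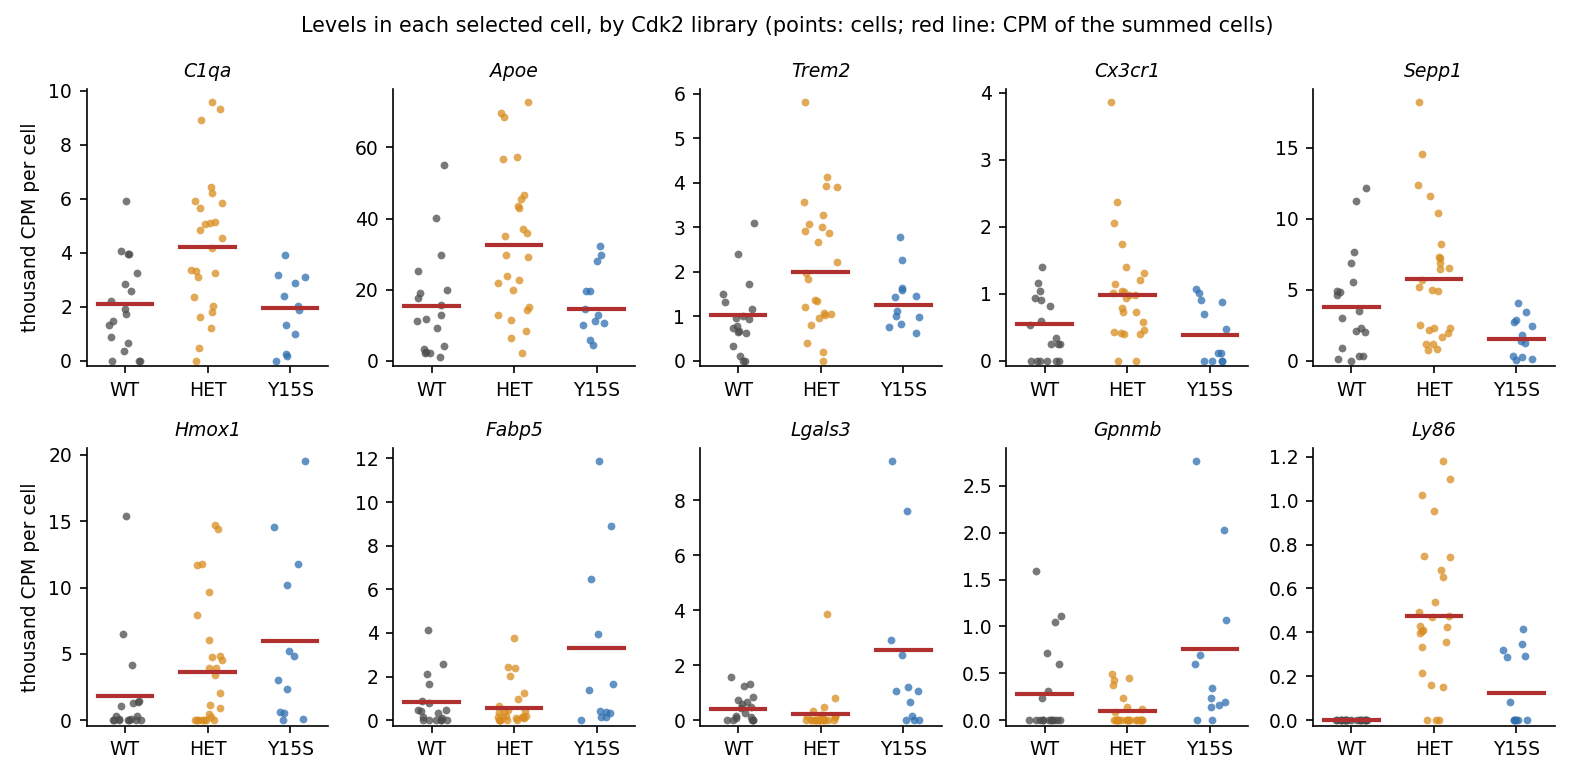
Levels of 10 genes in each selected cell, in 1000 CPM of that cell, by library; points are cells and red lines the CPM of the library's summed selected cells. Ly86 is at 0 in all 18 Cdk2-WT cells, and the red line of Apoe is highest in Cdk2-HET, at 32679 CPM.

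Ly86 had the highest ratio of Cdk2-HET over Cdk2-WT. This gene (MD-1, the partner of the Toll-like receptor homologue RP105; chromosome 13, 37345208-37419036, plus strand) had no UMI in the 18 Cdk2-WT cells, 97 UMIs in 22 of 25 Cdk2-HET cells and 16 UMIs in 6 of 12 Cdk2-Y15S cells. Its levels were 0, 474 (385 to 579) and 126 (71.9 to 204) CPM. Against the 22.2 CPM that 0 UMIs allow in Cdk2-WT, Ly86 was at least 21.4-fold higher in Cdk2-HET and at least 5.68-fold higher in Cdk2-Y15S. After thinning each cell to 2500 UMIs, 0 of 17, 16 of 21 and 4 of 12 cells kept a UMI. Sertoli-marker cells held a Ly86 UMI in 0.0315% of cells at a median of 6201 UMIs, against 50.9% of the selected cells at 7309. In the other cells Ly86 stood at 0.0656, 0.377 and 0.210 CPM. Its partner Cd180, which encodes RP105, had 36.9, 68.5 and 55.0 CPM in the selected cells, with intervals that overlapped. The mice were of a mixed strain background, and sequence differences at Ly86 between the libraries were not tested.

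Levels of single macrophage genes differed between the libraries in different ways. Apoe had 15439 (14784 to 16115), 32679 (31900 to 33472) and 14674 (14015 to 15355) CPM, with cells from 1098 to 55155 (median 12372), from 2380 to 72820 (29809) and from 4489 to 32227 (13832). The ranges of single cells overlapped between all 3 libraries, although the Cdk2-HET median stood above the other two. Trem2 had 1042 (877 to 1228), 2005 (1816 to 2209) and 1266 (1078 to 1477) CPM. Cx3cr1 had 547, 983 and 393 CPM, and was detected in 12 of 18, 23 of 25 and 8 of 12 cells. C1qa, a rule gene, had 2113, 4207 and 1958 CPM, and Sepp1 had 3812, 5742 and 1518 CPM. Sepp1 was low in Cdk2-Y15S, where its highest cell, at 4072 CPM, lay below the Cdk2-HET median of 5213 CPM. Other genes differed little: Csf1r had 502, 460 and 472 CPM, Adgre1 207, 210 and 220 CPM, and Pf4 2593, 2671 and 3366 CPM. Of 8 compared genes of the resident list, 1 was at least 2-fold higher in Cdk2-HET, beside 5.41% over all compared genes. The log2 ratio of Cdk2-HET over Cdk2-WT was 1.08 (1.01 to 1.15) for Apoe, 0.94 (0.67 to 1.23) for Trem2 and 0.99 (0.80 to 1.19) for C1qa, and that of Cdk2-Y15S was -1.33 (-1.57 to -1.09) for Sepp1.

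Some class I genes had their lowest levels in the Cdk2-WT cells. H2-D1 had 628 (502 to 776), 1521 (1357 to 1700) and 1227 (1042 to 1435) CPM, and H2-K1 236, 553 and 385 CPM. Psmb9, an immunoproteasome subunit, had 0, 12 and 6 UMIs. Of the 5 compared class I genes, 3 were at least 2-fold higher in Cdk2-HET and 2 in Cdk2-Y15S, beside 5.41% and 8.13% over all compared genes. In the other cells H2-D1 had 49.0, 54.4 and 61.8 CPM. Without the 12 cells that met another type's rule, the log2 ratio of Cdk2-Y15S over Cdk2-WT moved from 0.96 to 0.39 for H2-D1 and from 0.19 to -0.01 for B2m, and that of Cdk2-HET from 1.27 to 1.09 for H2-D1.

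Several iron, haem and lipid genes were highest in the Cdk2-Y15S cells, while the lipid list summed was highest in Cdk2-HET, at 17433, 35222 and 19880 CPM. Hmox1 had 1839 (1618 to 2083), 3615 (3359 to 3885) and 5945 (5529 to 6384) CPM, and was detected in 11 of 18, 18 of 25 and 11 of 12 cells. Sertoli-marker cells held a Hmox1 UMI in 30.3% of cells, so its share of positive cells is not read. Fth1 had 14937, 22334 and 33846 CPM, Lpl 155, 435 and 645 CPM and Cd36 266, 342 and 566 CPM. Fabp5 had 857 (708 to 1028), 567 (469 to 681) and 3326 (3017 to 3659) CPM, and Lgals3 (galectin-3) 399, 215 and 2548 CPM. In the other cells Hmox1, Fth1 and Fabp5 were all within 2-fold between libraries, while Lgals3 had 1.57, 1.45 and 3.47 CPM. Without the 12 cells that met another type's rule, the log2 ratio of Cdk2-Y15S over Cdk2-WT moved from 1.95 to 1.26 for Fabp5, from 1.42 to 0.68 for Gpnmb and from 2.66 to 2.29 for Lgals3, and for Hmox1 from 1.69 to 1.58. Of 10 compared lipid genes 4 were at least 2-fold higher in Cdk2-HET and of 7 compared 2 in Cdk2-Y15S. Of 10 iron and haem genes in Cdk2-HET and 9 in Cdk2-Y15S, 4 each were at least 2-fold higher than in Cdk2-WT and none lower. Over all compared genes, 5.41% were higher and 4.04% lower in Cdk2-HET, and 8.13% and 6.4% in Cdk2-Y15S.

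**Figure D4:**
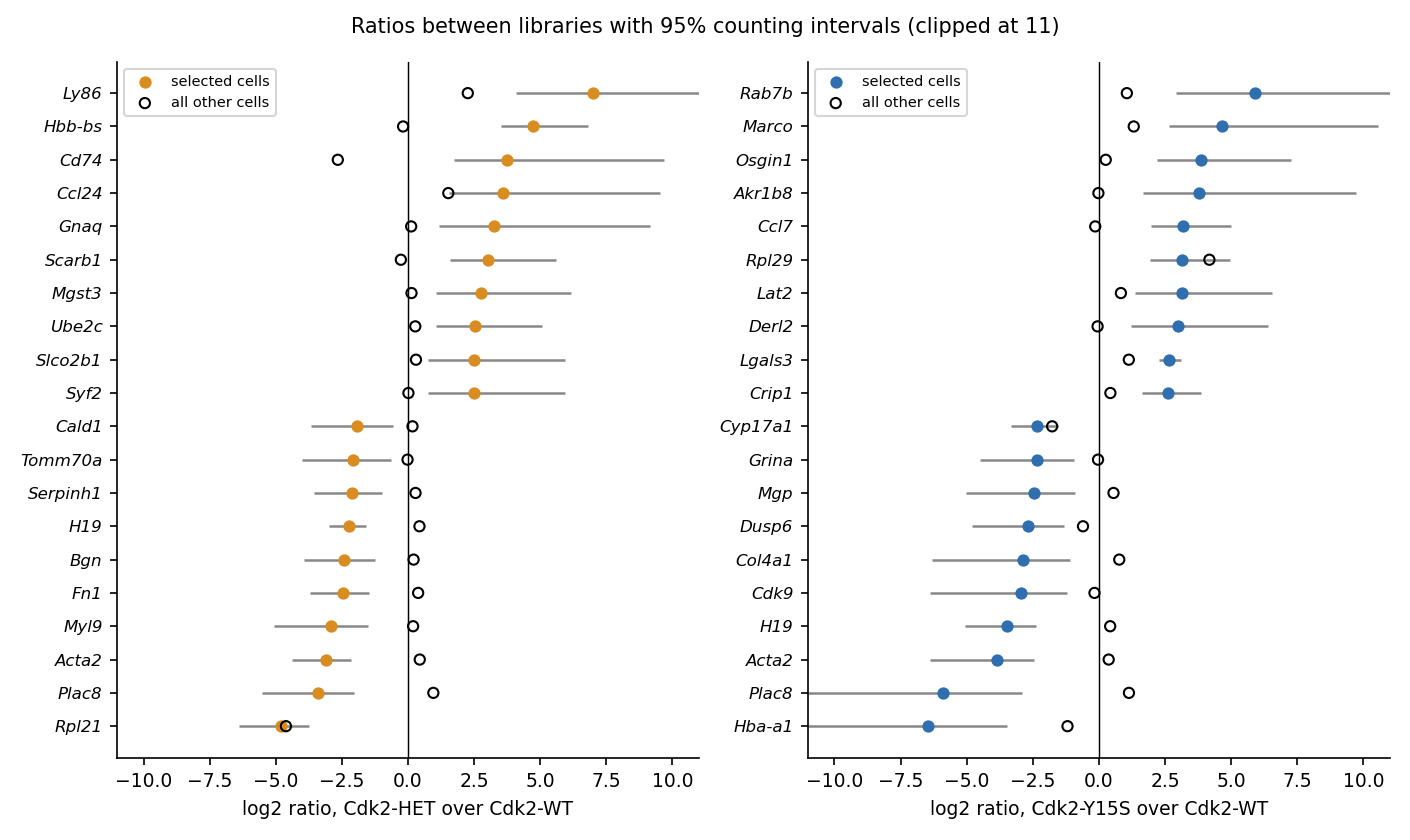
Log2 ratio of Cdk2-HET (left) and Cdk2-Y15S (right) over Cdk2-WT for the 10 highest and 10 lowest genes of each; filled points are selected cells with 95% counting intervals, clipped at 11, and open points all other cells. In the other cells Ly86, Ccl24 and Rpl21 also passed 2-fold in the same direction for Cdk2-HET. For Cdk2-Y15S so did Rab7b, Marco, Rpl29, Lgals3, Hba-a1 and Cyp17a1. Gnaq and Scarb1 were not among the genes that passed 2-fold there. Open points carry no interval, and the other cells include 9 unselected cells with 10 or more rule UMIs.

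The genes highest in Cdk2-Y15S included Rab7b, a lysosomal GTPase, with 0, 19.6 and 220 CPM, Osgin1, an oxidative stress gene, with 14.8, 48.9 and 267 CPM, and Ccl7, a monocyte chemokine, with 36.9, 112 and 362 CPM. Crip1 had 66.5, 196 and 425 CPM, and Lat2, an adaptor of immune receptors, 14.8, 44.0 and 157 CPM. Marco had 7.39, 4.89 and 275 CPM, but 1 cell held 65.7% of its UMIs in Cdk2-Y15S. In the other cells Rab7b and Marco were at least 2-fold higher in Cdk2-Y15S too. Those cells include 9 unselected cells with 10 or more rule UMIs, and free RNA can add to them. The ratios are therefore not read as a difference in other cell types. The 10 lowest in Cdk2-Y15S were Hba-a1, Plac8, Acta2, H19, Cdk9, Col4a1, Dusp6, Mgp, Grina and Cyp17a1. For 4 of these, Hba-a1, Plac8, Mgp and Cyp17a1, 1 cell held 50% or more of the Cdk2-WT UMIs. Dusp6, a phosphatase that ends ERK signalling, had 222, 147 and 31.5 CPM. Cdk9 had 148, 48.9 and 15.7 CPM and Grina 177, 132 and 31.5 CPM. Of 15 compared immediate early and heat shock genes, 6 were at least 2-fold lower in Cdk2-Y15S and none higher, beside 6.4% lower and 8.13% higher over all compared genes. These genes are known to rise during tissue dissociation. In the other cells the list summed to 12136, 11514 and 11507 CPM, and in the selected cells to 11029, 9205 and 7675 CPM.

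In Cdk2-HET the genes next to Ly86 were Hbb-bs and Cd74, for which 1 cell held 99.4% and 93.3% of the library's UMIs, then Ccl24, with 7.39, 132 and 47.2 CPM, Gnaq, a G protein subunit, with 7.39, 103 and 94.4 CPM, and Scarb1, the HDL receptor, with 22.2, 210 and 23.6 CPM. Without the 12 cells that met another type's rule the log2 ratio of Scarb1 in Cdk2-HET moved from 3.04 to 1.32, and fetal Leydig-marker cells held 595 CPM of it. Ccl24, like Ly86, was at least 2-fold higher in Cdk2-HET in the other cells too, but at levels near 0 there. Ccl24 had 1 UMI in stromal-marker and 0 in Sertoli-marker cells, and 0.0315% of Sertoli-marker cells held a Ly86 UMI. The other cells also include 9 unselected cells with 10 or more rule UMIs. These ratios are therefore not read as a difference in other cell types. Mgst3 and Syf2 were low in Cdk2-WT alone, at 14.8 CPM each against 122 and 103 CPM in Cdk2-HET. Slco2b1, an organic anion carrier, had 14.8, 103 and 15.7 CPM. Lower in Cdk2-HET were Acta2, Myl9, Cald1, Fn1, Bgn, Serpinh1 and H19, known from stromal and smooth muscle cells, and Rpl21, Plac8 and Tomm70a. In Cdk2-WT 1 cell held 61.3% of the Plac8 UMIs and 1 cell 68.4% of the Fn1 UMIs, and without the cells of under 10 C1q UMIs the ratio of Plac8 turned to 0.76 on the log2 scale. Acta2 had 399, 44.0 and 23.6 CPM, and the peritubular myoid list summed to 473, 48.9 and 39.3 CPM. Both selected cells that met the myoid rule were in Cdk2-WT, and without the 12 cells that met another type's rule the log2 ratio of Cdk2-HET over Cdk2-WT moved from -3.12 to -0.57 for Acta2 and from -2.24 to -0.26 for H19. In the same setting it moved from -2.92 to -1.60 for Myl9, from -2.42 to -0.75 for Bgn and from -1.94 to -0.75 for Cald1, while Fn1 went from -2.47 to -2.83 and Serpinh1 from -2.12 to -2.03.

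A pair of ribosomal genes differed between libraries in the other cells too. Rpl21 had 879, 29.3 and 519 CPM and 1077, 43.9 and 841 CPM in the other cells. Rpl29 had 36.9, 4.89 and 354 CPM in the selected cells and 27.4, 29.7 and 497 CPM in the others. Ribosomal protein genes have many near-identical pseudogenes, so both values are given as uncertain, and reads shared with copies were not tested.

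The selected cells did not vary alike. By variance over mean of UMIs scaled to the median depth, pooled over the 3 libraries, Hbb-bs, Apoe, Hba-a1, Fth1 and Actb ranked highest. That measure includes differences between libraries and grows with abundance, and the globin genes were detected in 3 cells each. The spread of Gpnmb, a lysosomal glycoprotein of lipid-laden macrophages, was examined after its values were seen, with no test. Of 55 cells, 9 had 5 or more Gpnmb UMIs: 3 of 18 in Cdk2-WT, 1 of 25 in Cdk2-HET and 5 of 12 in Cdk2-Y15S. They were deeper, at a median of 11806 UMIs against 6845 in the other 46. Among the 9, 1 Cdk2-WT cell met the peritubular myoid rule and 1 Cdk2-Y15S cell the stromal rule. A further Cdk2-Y15S cell met the fetal Leydig rule, with 136 UMIs of those markers. Fabp5 had 4426 CPM (4053 to 4824) in these 9 cells and 391 CPM (329 to 463) in the other 46, Lgals3 2597 and 337 CPM, Cd63 1811 and 909 CPM, and Lyz2 10663 and 5204 CPM. Cx3cr1 was lower when pooled, with 359 CPM (259 to 485) against 809 CPM (717 to 909), as did Mrc1 with 197 and 566 CPM and F13a1 with 94.0 and 226 CPM. C1qa had 2409 and 3180.5 CPM and Trem2 1290 and 1603 CPM. Of the 9 cells 5 are from Cdk2-Y15S and of the 46 cells 24 from Cdk2-HET, so pooled values mix the libraries.

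**Figure D5:**
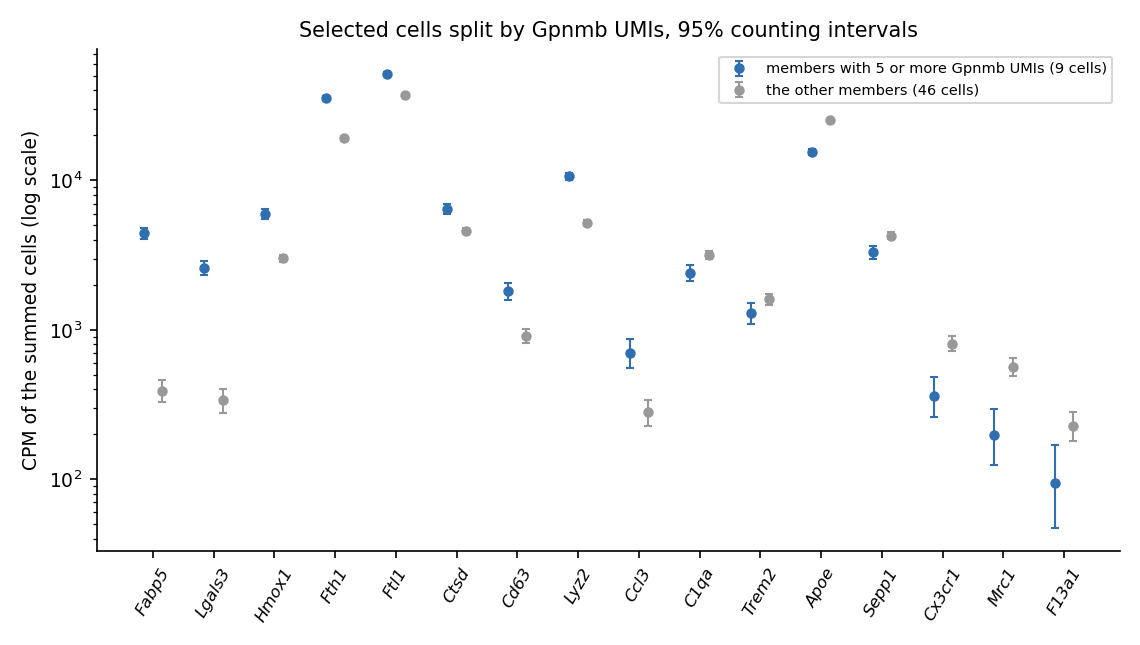
CPM of the summed cells on a log scale for 16 genes in the 9 selected cells with 5 or more Gpnmb UMIs (blue) and in the other 46 (grey), with 95% exact Poisson intervals for counting error. Pooled over libraries, Fabp5 and Lgals3 stand higher in the 9 cells, and Cx3cr1, Mrc1 and F13a1 lower.

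Within libraries the split held for Fabp5. It had 2485 CPM in the 3 such Cdk2-WT cells against 349 CPM in the other 15, and 6007 CPM in the 5 Cdk2-Y15S cells against 515 CPM in the other 7. Lgals3 did so in Cdk2-Y15S, at 4363 against 644 CPM, while in Cdk2-WT its intervals overlapped, at 497 (284 to 807) and 368 (261 to 506) CPM. In Cdk2-Y15S the 5 cells had 3 Cx3cr1 UMIs in all and no Ly86 UMI, and the other 7 had 757 CPM of Cx3cr1 and 258 CPM of Ly86. Sepp1 was at 983 CPM in the 5 and 2078 CPM in the 7 Cdk2-Y15S cells, but at 5591 and 3257 CPM in the Cdk2-WT cells, so its direction differed. C1qa and Trem2 were higher in the Gpnmb cells of Cdk2-WT, at 2733 against 1919 CPM and 1522 against 892 CPM, and lower in those of Cdk2-Y15S, at 1429 against 2513 CPM and 891 against 1659 CPM. Cx3cr1 in Cdk2-WT had overlapping intervals, at 404 (215 to 691) and 591 (452 to 759) CPM, and the 1 Cdk2-HET cell held 1316 CPM against 948 CPM in the other 24. Hmox1 had 8220 CPM in the 5 and 3560.0 CPM in the 7 Cdk2-Y15S cells, the latter beside 3519 CPM in the other 24 Cdk2-HET cells. Over the 55 cells the rank correlation of CPM between Gpnmb and Fabp5 was 0.558 and that between Gpnmb and Cx3cr1 -0.125. The cells share 3 libraries and differ in depth.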

How the data were processed

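The authors deposited 1 matrix of raw UMI counts per gene and cell for the 3 libraries, with barcodes whose suffix names the library per the labels, and a list of 141 germ cells, none of them selected here; the submitters' processing notes name Cell Ranger 2.1.0, Seurat and mm10. Which tool filtered the cells is not stated there. Other columns the authors deposited, of germ cell counts and cluster names, hold other cells and were not used for levels.

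Selected cells' UMIs were summed (135372, 204445 and 127166 by library) and given as CPM with exact 95% Poisson intervals; log2 ratios used 0.5 UMIs added and conditional exact binomial intervals, tested on simulated data. Intervals cover counting error only. No genes were tested between genotypes, as each has 1 library. Scanpy 1.11.5 gave clusters (resolution 1) and Scrublet doublet calls. Marker rules for 14 other types asked for 10 UMIs and 3 genes; "marker" cells met 1 rule only. The members and the 29 gene lists were chosen with earlier results of these data known. Named genes were the 6 rule genes, the 25 highest over other cells, the 10 highest and lowest per library ratio, the 5 most variable, and per list the 4 highest by CPM, the 2 highest by ratio and members at 0; others named were chosen after their values were seen.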

Additional observations from a re-analysis of the deposited data

How the results depend on the processing

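No paired analysis was possible because each genotype has 1 library. Over 185 results and 16 other settings, 1930 of 2125 values stayed within their counting interval (medians of lists within 0.5 on the log2 scale, counts within 1.5 times), 191 moved beyond it and 4 changed sign. The number of selected cells and the grouping of 53 of them in 1 cluster moved by less than 1.5 times. Counts of genes past a fold moved most with the minimum. With at least 50 UMIs, 221 genes were 4-fold higher and 168 lower than in other cells, 32 and 20 were 2-fold higher and lower in Cdk2-HET, and 46 and 27 in Cdk2-Y15S. With at least 1 UMI these counts were 1386, 1511, 1345, 2429, 2245 and 2712. Without Cdk2-HET, 212 genes were higher and 137 lower than in other cells. With cells weighted equally, 209 genes were higher in Cdk2-HET. Without the members that met another type's rule, 60 genes were lower in Cdk2-HET and 65 in Cdk2-Y15S, and Hbb-bs reversed in Cdk2-HET, to -2.33. Cyp17a1 in Cdk2-Y15S reversed to 3.38 without the deepest member of each library. Plac8 in Cdk2-HET reversed to 0.76 without the members of under 10 C1q UMIs, a setting chosen after seeing the data. With at least 1 UMI the median of the list of ligands in the niche reversed to -0.17. Apart from these removals of cells and changes of the minimum, the cause was not tested. With 12 to 25 cells per library, genes under about 20 UMIs had intervals too wide to read.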
